A study of Gallus gallus with 27 samples.

Results

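Open chromatin was compared between Hamburger-Hamilton stages HH25 and HH18 in double-positive cells of the chick embryo, with 3 libraries at each stage. These are 6 of the 27 libraries of the series, chosen by their labels, and all intervals of the count table were taken. Embryos from wild-type eggs were electroporated at HH8/9 with the reporters NC2:citrine and E2:citrine, their vagal regions were dissected and dissociated, and cells were sorted by fluorescence. Double-positive cells are labelled NC2+ and E2+. The comparison groups at the same stages, with 3 libraries each, are E2-only cells (NC2-, E2+) and cells with neither signal, called negative cells here. All groups come from electroporated embryos. Both reporters are labelled as citrine, and the sources used here do not say how the 2 signals were separated. The extract protocol speaks of biological replicates, without saying how many embryos went into each.

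The vagal neural crest arises at the level of the hindbrain and the first somites. Its cells leave the neural tube, migrate, and form most of the enteric nervous system, parts of the heart outflow tract, and peripheral neurons and glia. NC2 and E2 are known as enhancers of the neural crest transcription factor genes FOXD3 and SOX10. ATAC-seq measures open chromatin with a transposase that inserts sequencing adapters into accessible DNA, and open stretches away from gene starts are often enhancers. A reporter marks cells at the time of sorting, so a change inside cells and a change in which cells carry the signal cannot be told apart.

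Reads were counted in 140062 common intervals, nearly all 200 bp wide, and 134020 with enough counts were tested. Positions are those of the table, in the galGal5 build; the sources used here do not say if the first base of a chromosome is 0 or 1. No galGal5 genome or annotation was used. Intervals are therefore named by position alone, none is tied to a gene, and the sorted identity was not checked against marker genes. Levels are given in CPM, the count scaled to library size after TMM normalisation. No library holds a value below 1, and a 1 in the table may therefore mean 0 reads.

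Totals were 3477552, 3004493 and 3020365 reads in the HH18 double-positive libraries and 2609023, 2776717 and 3781843 in those of HH25. A floor of 3 counts corresponds to 0.77 to 1.13 CPM in these libraries. Across tested intervals, which are not independent, Spearman's correlation was 0.826 to 0.844 between HH18 libraries, 0.764 to 0.777 between HH25 libraries and 0.532 to 0.554 between stages. The first principal component of the 6 libraries held 61.2% of the variance and separated the stages. Effects of stage and of any stage-wise handling or sequencing cannot be told apart.

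Between HH18 and HH25 the open chromatin of double-positive cells changed in both directions to a similar extent. By edgeR's quasi-likelihood test at a Benjamini-Hochberg adjusted p below 0.05, 21883 intervals were higher at HH25 (16.3% of those tested) and 24670 were lower (18.4%), together 46553 (34.7%). They are called gains and losses here. The median log2 fold change was 1.72 among gains and -1.43 among losses. The 3 libraries of each stage did not overlap at 88.5% of gains and 91.4% of losses, where 19.6% and 22.3% of all tested intervals were higher and lower without overlap. The balance of directions depended on scaling: with library totals alone, 27866 intervals were higher and 19086 lower, and the median log2 fold change of all intervals moved from -0.05 to 0.14. It also turned with counts lowered by 1 and halved, to 21244 higher and 18419 lower of 97999 tested. The balance turned too without HH18 replicate 3 (20148 and 19733) or HH25 replicate 1 (20863 and 20087), 2 (20181 and 19722) or 3 (20578 and 19087). Those fits without 1 library tested 135911 to 136792 intervals, so the parts of the filter and of the library cannot be told apart. With all libraries kept and no filter, 23722 were higher and 22753 lower.

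Gains started from low levels and losses from high ones, which in part follows from how they were called. Among gains, 2913 (13.3%) held at most 3 counts in each HH18 library. Among losses, 510 (2.07%) held at most 3 counts in each HH25 library. Many more losses than gains thus kept signal at the stage where they were lower: a mean of at least 5 CPM there was seen for 45.7% of losses and 21.8% of gains. Changes of at least 4-fold were called at 7715 gains (5.76% of tested intervals) and 4940 losses (3.69%). At 8-fold the numbers were 1477 (1.1%) and 709 (0.529%). When intervals were ranked into 5 equal classes by mean double-positive level, losses were 3.63% of the lowest class and 39.3% of the highest. Gains were 10.7% of the lowest class, 20.0% of the middle one and 15.0% of the highest. The power of the test also grows with counts, and its part in these shares was not tested.

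**Figure D1:**
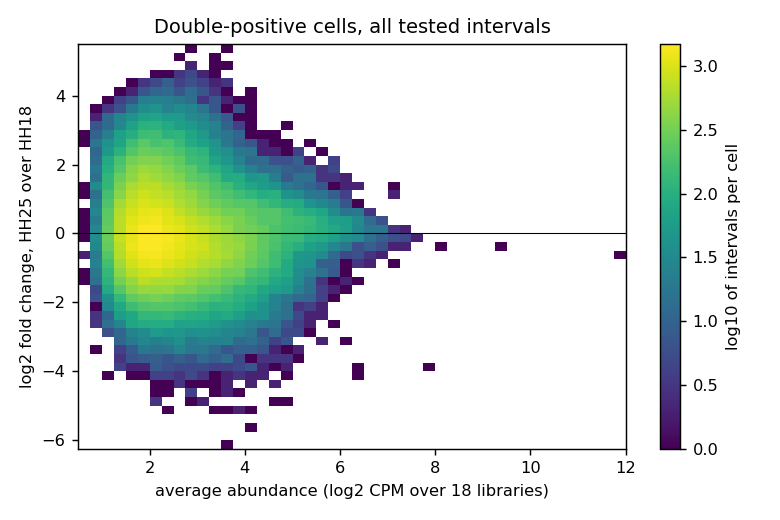
Log2 fold change of HH25 over HH18 in double-positive cells (vertical axis) against abundance (horizontal axis, log2 CPM) for the 134020 tested intervals, with colour for the number of intervals. Intervals spread to both sides of 0, with 21883 called higher and 24670 called lower.

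Gained intervals held 8.28 to 8.83% of the reads of each HH18 double-positive library and 24.3 to 25.3% at HH25. Lost intervals held 40.3 to 41.5% at HH18 and 18.1 to 18.8% at HH25. These shares follow from the calls, and they were close among the 3 libraries of a stage. In HH18 negative libraries, the gained intervals held 16.7 to 18.7% and the lost intervals 20.0 to 21.0% of reads.

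The other populations placed these levels in context, as a description. At HH18, gained intervals had a median level of 1.93 CPM in double-positive cells, 1.88 in E2-only cells and 3.56 in negative cells. At HH25 their medians were 7.25, 7.8 and 6.91 CPM in the same order. Both reporter-positive populations were thus low at HH18, and the 3 populations were near each other at HH25. Lost intervals had medians of 12.9 CPM in double-positive cells, 8.06 in E2-only cells and 5.0 in negative cells at HH18, and 4.47, 3.59 and 2.94 CPM at HH25. Over all tested intervals the group medians lay between 4.06 and 4.47 CPM.

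**Figure D2:**
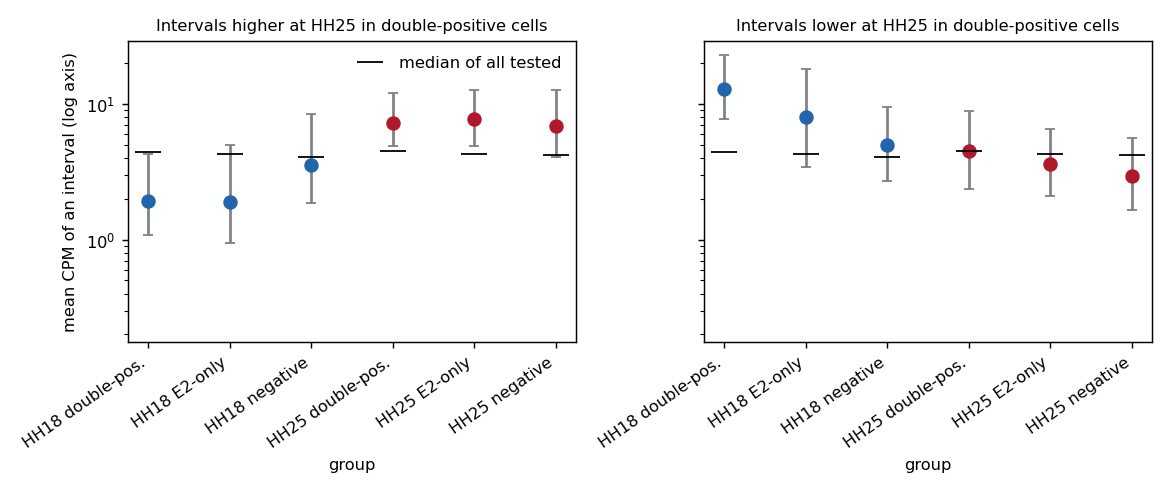
Mean CPM per interval (log axis) in the 6 groups for gained and lost intervals, as medians with the 25th to 75th percentiles. Gained intervals lie at 1.93 CPM in HH18 double-positive cells and 7.25 CPM at HH25, and lost intervals at 12.9 and 4.47 CPM.

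The 8 largest gains, ranked by fold change among called, non-overlapping intervals above the median abundance, were nearly shut at HH18. At 7 of them each HH18 library held a count of 1, which is 0.328, 0.373 and 0.365 CPM in replicates 1, 2 and 3. The first in rank, chr15:8048768-8048968, then read 20.0, 17.3 and 15.7 CPM at HH25. Its HH25 libraries were all far above the floor. The ratio of levels was 49.1 (95% counting interval 16.5 to 240.3), an interval that covers counting error only, and edgeR's adjusted p was 3.1e-15. If a count of 1 stands for 0 reads, this ratio and its upper limit do not exist. The same holds for the other gains with a count of 1 in each HH18 library. Of 16 other tested intervals within 50 kb, 5 were also gains and 0 were losses, where 16.3% and 18.4% of all tested intervals were. Such counts varied among the named intervals. Near chr22:177724-177924, 0 of 7 were gains and 0 were losses. Near chr5:28191965-28192165, a loss, 7 of 14 were gains and 0 were losses.

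From the same HH18 counts, chr8:4582427-4582627 read 15.1, 17.3 and 13.1 CPM at HH25, a ratio of 42.1 (95% counting interval 14.1 to 206.6). On a contig not placed within chromosome 3, chr3_NT_459492v1_random:2807-3007 read 16.2, 8.28 and 15.7 CPM, a ratio of 38.5 (95% counting interval 12.9 to 188.9). Replicate 2 was the lowest HH25 library on that contig, yet well above HH18. Similar in size, chr1:99234235-99234435 read 14.7, 10.1 and 12.8 CPM at HH25, a ratio of 35.4 (95% counting interval 11.8 to 174.3). Next came chr4:90662293-90662493 with 12.4, 9.37 and 13.9 CPM, a ratio of 34.2 (95% counting interval 11.4 to 168.4). That no library of one stage reached the range of the other at these intervals follows from the selection. In chr13:2544309-2544509 the HH25 libraries read 8.3, 13.3 and 13.9 CPM, a ratio of 34.2 (95% counting interval 11.4 to 168.4). Last of the 7, chr3:4612551-4612751 read 9.43, 11.2 and 11.0 CPM, a ratio of 30.0 (95% counting interval 9.96 to 147.8). The lowest HH25 library was replicate 1 at both.

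The remaining gain, chr22:177724-177924, read 0.657, 0.745 and 0.365 CPM at HH18 and 12.1, 20.9 and 18.2 CPM at HH25. The stages lay far apart, with replicate 1 the lowest at HH25 (log2 fold change 4.79, SE 0.50, edgeR adjusted p = 7.4e-14). All 8 gains were also called higher at HH25 in E2-only and in negative cells by edgeR, as were 33.9% of all gains. The rule asked for abundance above the median, and its part in this was not tested. Among them, chr13:2544309-2544509 changed more than in negative cells (difference of log2 changes 2.77, SE 0.90, edgeR adjusted p = 0.042) and chr3_NT_459492v1_random:2807-3007 more than in E2-only cells (2.78, SE 0.84, edgeR adjusted p = 0.013). The other 6 of the 8 gains passed neither test of a difference.

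**Figure D3:**
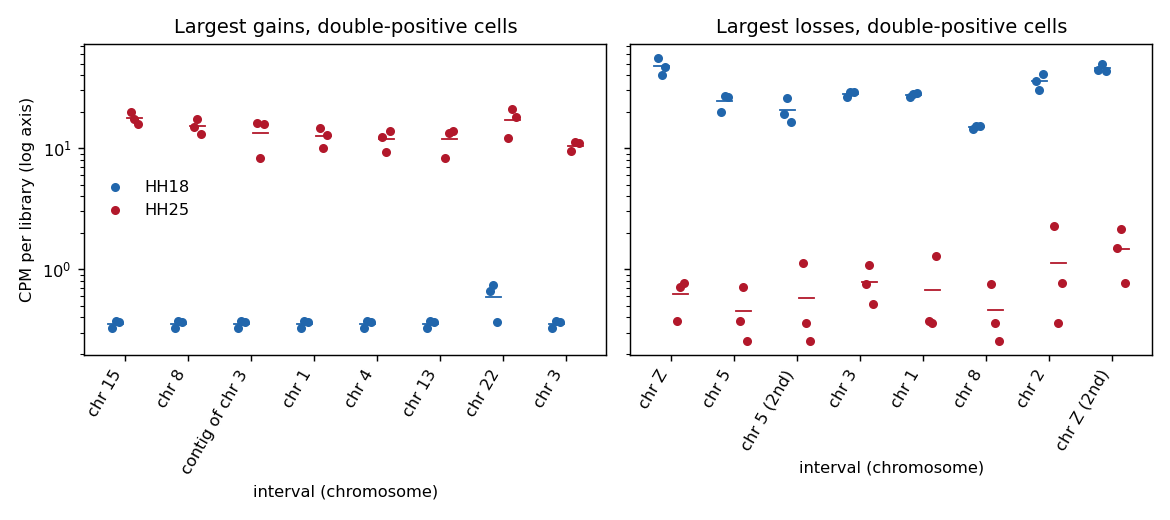
CPM per library (log axis) at the 8 largest gains and the 8 largest losses in double-positive cells, HH18 in blue and HH25 in red, 3 libraries each, with short lines for their means. The 16 intervals were chosen among those where the stages do not overlap, and 7 gains start from a count of 1 in every HH18 library.

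The gains of smallest p were more abundant, and 2 of the 4 lay on 1 unplaced contig. There, chrUn_NT_464165v1:15557-15757 read 6.57, 4.1 and 8.39 CPM at HH18 and 47.1, 49.0 and 67.0 CPM at HH25 (log2 fold change 3.10, SE 0.26, edgeR adjusted p = 1.7e-18). Its neighbour chrUn_NT_464165v1:10785-10985 read 11.8, 14.2 and 13.9 CPM at HH18 and 64.9, 77.8 and 67.0 CPM at HH25 (2.40, SE 0.21, edgeR adjusted p = 2.6e-17). Each had 8 other tested intervals within 50 kb, of which 7 were gains and 0 were losses. The 2 lie within 50 kb of each other, so each counts the other. Of all tested contig intervals, 47.5% were gains and 6.21% losses. On chromosome 1, chr1:90536199-90536399 read 2.95, 1.86 and 1.09 CPM at HH18 and 25.6, 37.8 and 36.2 CPM at HH25 (log2 fold change 4.04, SE 0.35, edgeR adjusted p = 1.8e-17). On chromosome 10, chr10:12004740-12004940 read 1.64, 2.61 and 0.73 CPM at HH18 and 26.8, 29.9 and 22.3 CPM at HH25 (3.95, SE 0.38, edgeR adjusted p = 2e-15). Within 50 kb of the interval on chromosome 10, 2 of 17 other tested intervals were gains and 7 were losses. Near the one on chromosome 1, 2 of 4 were gains and 1 was a loss. The stages were far apart at all 4 gains. These intervals were also called higher in both other populations, as were 33.9% of all gains.

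The gains with the largest difference in CPM all lay on contigs. The interval chrUn_NT_478836v1:851-1051 read 92.6, 129.3 and 99.6 CPM at HH18 and 232.7, 216.8 and 253.3 CPM at HH25 (log2 fold change 1.13, SE 0.35, edgeR adjusted p = 0.023). The stages did not overlap, but its call was lost without HH18 replicate 1 or without HH18 replicate 3. More evenly, chrUn_NT_467410v1:4065-4265 read 86.7, 88.7 and 91.9 CPM at HH18 and 172.7, 180.1 and 209.7 CPM at HH25 (1.08, SE 0.15, edgeR adjusted p = 3e-09). That interval did not pass in negative cells (-0.12) or E2-only cells (-0.21), and the double-positive change exceeded both (differences 1.20, SE 0.20, edgeR adjusted p = 3.6e-05 and 1.28, SE 0.20, edgeR adjusted p = 1.2e-06). The other intervals were chrUn_NT_477282v1:1720-1920, with 41.7, 59.3 and 89.0 CPM at HH18 and 164.8, 163.5 and 152.4 CPM at HH25 (1.34, SE 0.27, edgeR adjusted p = 0.00086), and chr23_NT_463088v1_random:6232-6432. The latter read 46.3, 52.2 and 44.1 CPM at HH18 and 118.4, 138.0 and 144.2 CPM at HH25 (1.49, SE 0.22, edgeR adjusted p = 2.5e-06). HH18 replicates spread widely at the first and lay close together at the second.

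The largest losses ended near the floor. The first, chrZ:63108857-63109057, read 55.5, 39.9 and 46.7 CPM at HH18 and 0.377, 0.72 and 0.77 CPM at HH25. Every HH25 library was at or below its floor of 3 counts, and the stages were far apart. The log2 fold change was -6.14, SE 0.40, edgeR adjusted p = 2.7e-24, and the ratio of levels 74.1 (95% counting interval 33.8 to 203.2). E2-only cells went from 18.2 ± 2.45 to 0.867 ± 0.623 CPM and negative cells from 7.28 ± 4.19 to 1.46 ± 0.266 CPM (SD, n = 3). The fall was larger than in negative cells (difference -4.13, SE 0.80, edgeR adjusted p = 0.00027).

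On chromosome 5, chr5:28191965-28192165 read 20.0, 27.2 and 26.6 CPM at HH18 and 0.377, 0.72 and 0.257 CPM at HH25 (log2 fold change -5.73, SE 0.48, edgeR adjusted p = 1.9e-18). At chr5:30518314-30518514 the libraries read 19.0, 26.1 and 16.4 CPM at HH18 and 1.13, 0.36 and 0.257 CPM at HH25 (-5.17, SE 0.47, edgeR adjusted p = 2.9e-16). E2-only cells were higher than double-positive cells there at HH18, at 58.5 ± 2.24 and 44.6 ± 0.46 CPM (SD, n = 3). HH18 libraries lay close together at chr3:372070-372270, which went from 26.3, 29.1 and 29.2 to 0.754, 1.08 and 0.513 CPM (-5.17, SE 0.42, edgeR adjusted p = 6.2e-19). So did those of chr1:55838961-55839161, which went from 26.6, 28.0 and 28.5 to 0.377, 0.36 and 1.28 CPM (-5.15, SE 0.44, edgeR adjusted p = 7.2e-18). Replicate 3 was the highest HH25 library at the second of these.

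Smaller in level, chr8:2326152-2326352 went from 14.4, 15.3 and 15.3 to 0.754, 0.36 and 0.257 CPM (-5.02, SE 0.55, edgeR adjusted p = 9.3e-13). It was the only one of the 8 whose fall was larger than in negative cells (-3.09, SE 0.93, edgeR adjusted p = 0.025) and also larger than in E2-only cells (-2.73, SE 0.89, edgeR adjusted p = 0.02). On chromosome 2, chr2:81222249-81222449 went from 36.1, 30.2 and 41.2 to 2.26, 0.36 and 0.77 CPM (-5.02, SE 0.40, edgeR adjusted p = 1.6e-19), with replicate 1 the highest at HH25. The last, chrZ:60131170-60131370, went from 44.3, 49.9 and 43.8 to 1.51, 2.16 and 0.77 CPM (-5.01, SE 0.35, edgeR adjusted p = 2.4e-22). All 8 losses were also called lower in E2-only and in negative cells by edgeR, as were 25.7% of all losses. The part of the abundance rule in this was not tested. At 5 of the 8 the fall in double-positive cells was the larger against negative cells.

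A few losses were very abundant at HH18. The interval chr1:153949737-153949937 read 586.0, 751.1 and 685.7 CPM at HH18 and 35.1, 51.1 and 53.1 CPM at HH25 (log2 fold change -3.85, SE 0.15, edgeR adjusted p = 1.5e-40). In E2-only cells it went from 678.6 ± 126.6 to 19.4 ± 3.55 CPM and in negative cells from 25.9 ± 5.5 to 9.32 ± 2.05 CPM (SD, n = 3). High signal at HH18 was thus shared by the reporter-positive populations. Its fall in double-positive cells was larger than in negative cells (-2.45, SE 0.26, edgeR adjusted p = 1.7e-10) and smaller than in E2-only cells (1.27, SE 0.21, edgeR adjusted p = 3.9e-06).

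A pair of intervals had a like pattern. The first, chr8_NT_461478v1_random:4040-4240, on a contig assigned to chromosome 8, read 192.1, 292.2 and 273.2 CPM at HH18 and 12.1, 14.4 and 21.0 CPM at HH25 (-3.95, SE 0.19, edgeR adjusted p = 2.9e-35). The second, chr8:27835367-27835567, on chromosome 8 itself, read 172.7, 278.4 and 270.6 CPM at HH18 and 6.41, 13.3 and 18.7 CPM at HH25 (-4.16, SE 0.23, edgeR adjusted p = 3.7e-19). Their libraries rank alike, with HH18 replicate 1 the lowest of its stage at both. HH18 means were 212.8 ± 37.8 and 207.7 ± 47.0 CPM in E2-only cells and 6.4 ± 3.15 and 8.04 ± 2.55 CPM in negative cells (SD, n = 3). Whether the same sequence is present at both was not tested, so reads may be shared between them. The reporters carry copies of genomic enhancers whose positions the sources used here do not give, and reads from a plasmid and from a chromosome cannot be told apart.

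The other abundant losses differed in their level in negative cells. At chr3:32986936-32987136 the level went from 146.1, 165.1 and 125.5 to 14.7, 17.3 and 14.1 CPM (-3.25, SE 0.18, edgeR adjusted p = 1.6e-28). Its HH18 mean was 141.1 ± 5.05 CPM in E2-only and 77.4 ± 4.69 CPM in negative cells (SD, n = 3), and neither difference of changes passed (0.25 and 0.32). At chr3:44560861-44561061 the level went from 75.8, 73.1 and 62.0 to 3.39, 3.24 and 3.59 CPM (-4.35, SE 0.26, edgeR adjusted p = 1.5e-26), with narrow spread at HH25. HH18 means there were 49.6 ± 1.6 CPM in E2-only and 15.5 ± 1.69 CPM in negative cells (SD, n = 3), so negative cells were the lowest. Highest in level of the named intervals, chr2:49766663-49766863 went from 4735.7, 5374.9 and 5361.9 to 3265.1, 2970.9 and 3514.0 CPM (-0.67, SE 0.20, edgeR adjusted p = 0.02). The stages did not overlap, but the call was lost with library totals alone and without HH18 replicate 2, HH18 replicate 3 or HH25 replicate 2.

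Some abundant intervals did not pass. The 4 of highest level among them included chr4:22424152-22424352, with 298.7, 344.0 and 396.9 CPM at HH18 and 291.1, 288.9 and 264.3 CPM at HH25 (-0.30, SE 0.14, edgeR adjusted p = 0.099), and chr9:12721454-12721654. The latter read 172.7, 186.7 and 160.9 CPM at HH18 and 161.4, 166.8 and 173.5 CPM at HH25 (-0.05, SE 0.13, edgeR adjusted p = 0.8), and its stages overlapped. Between these, chr5:41014297-41014497 had means of 214.9 ± 19.0 and 182.3 ± 12.9 CPM and chr5:48083127-48083327 of 199.8 ± 8.57 and 171.6 ± 8.01 CPM (SD, n = 3). With offsets that vary with abundance, all 4 were called lower, by log2 fold changes of -0.73, -0.61, -0.58 and -0.40 in the order chr4:22424152-22424352, chr5:41014297-41014497, chr5:48083127-48083327 and chr9:12721454-12721654.

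Gains and losses were spread unevenly over chromosomes. On chromosomes 1 to 5, 13.0% of tested intervals were gains and 20.8% were losses. On chromosomes 6 to 10 the shares were 13.5% and 19.8%, and on the small chromosomes 11 to 33 they were 19.7% and 12.3%. Among the small ones, chromosome 25 had 150 gains and 13 losses in 377 intervals, and chromosome 28 had 268 and 37 in 822. Chromosome Z leaned to losses, with 11.3% gains and 26.8% losses, and 14.3% and 21.1% with library totals alone. Its median log2 fold change was -0.36. In fits that also tested more intervals, it was -0.25 without HH25 replicate 1 or 2 and -0.45 without HH25 replicate 3. HH25 libraries differed in their share of reads on Z, as given below. With library totals alone, chromosomes 1 to 5 had 16.9% gains and 16.2% losses and chromosomes 6 to 10 had 17.7% and 15.2%, so the lean to losses on both depended on scaling. Chromosomes 11 to 33 had 25.8% and 9.2% under the same scaling.

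**Figure D4:**
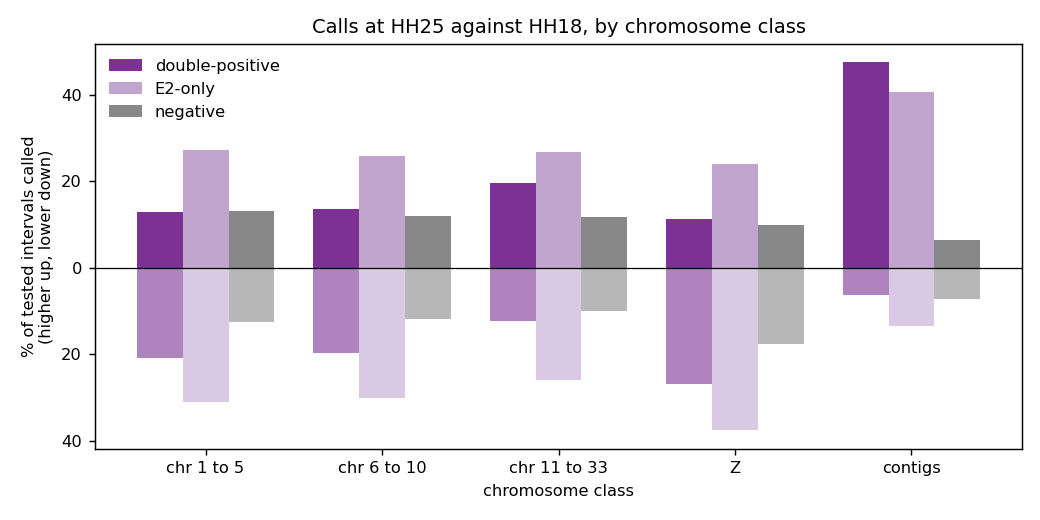
Percent of tested intervals called higher or lower at HH25 in each class of chromosomes, for double-positive, E2-only and negative cells. Contigs had 47.5% called higher in double-positive cells, 40.7% in E2-only cells and 6.52% in negative cells.

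On contigs outside the assembled chromosomes, gains far outnumbered losses in double-positive cells. Of 7749 tested contig intervals, 47.5% were gains and 6.21% losses, with a median log2 fold change of 1.07. In E2-only cells 40.7% were higher at HH25, where 27.6% of all intervals were, and in negative cells 6.52%, where 12.1% were. Contigs held 3.25 to 3.89% of reads in HH18 double-positive libraries and 7.0 to 7.21% in those of HH25. Negative libraries held 4.71 to 6.68% at HH18 and 5.38 to 6.29% at HH25. E2-only libraries held 3.62 to 4.07% at HH18 and 5.59 to 6.49% at HH25. Both reporter-positive populations were thus below negative libraries at HH18. Double-positive libraries were above those of the other populations at HH25. Repeats on contigs could share reads, and that part was not tested.

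Neighbouring intervals tended to change in the same direction. The next tested interval 1 to 5 kb after a gain was a gain in 26.2% and a loss in 13.4% of 8891 pairs. After a loss it was a loss in 26.7% and a gain in 10.2% of 11109 pairs. After an interval that was not called, the shares at this distance were 14.3% gains and 18.5% losses. The shares did not rise steadily as intervals lay closer. Under 1 kb, 19.0% were gains and 14.9% losses after a gain, and 29.3% were losses after a loss. At 20 to 50 kb, 18.2% were gains after a gain and 25.1% were losses after a loss. Gains and losses also differ in frequency between chromosome classes, and the part of this in the neighbour shares was not tested. Even so, most called intervals had no called neighbour of their direction next to them: 8063 gains and 10498 losses stood in an unbroken run with another. Runs of at least 5 numbered 87 among gains and 122 among losses.

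The longest runs of losses held 8 intervals, and 4 were of that length. On chromosome Z from 19847722 to 19917219 the summed level went from 180.9, 178.5 and 165.6 to 44.5, 43.2 and 60.8 CPM. On chromosome 2 from 102627581 to 102652921 it went from 162.2, 144.6 and 144.8 to 32.4, 31.3 and 32.3 CPM. Double-positive cells had the highest HH18 sums of the 3 populations in both runs, with E2-only sums of 56.4, 72.9 and 68.7 and of 93.7, 93.2 and 98.1 CPM. On chromosome 5 from 48159715 to 48195098 the sum went from 86.0, 96.5 and 101.0 to 29.8, 28.1 and 26.9 CPM, and E2-only cells were higher at HH18, at 222.2, 187.8 and 228.8 CPM. On chromosome 4 from 54978602 to 55009035 it went from 100.5, 98.8 and 109.4 to 35.8, 38.5 and 35.2 CPM. No HH25 library reached the HH18 range in any of the 4.

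Among gains, a run of 10 intervals on chromosome 1 from 194055444 to 194134414 went from 11.2, 8.57 and 7.3 to 56.9, 77.8 and 68.3 CPM in sum, with a median log2 fold change of 2.80. All 10 were still called when any 1 HH25 double-positive library was left out. E2-only cells had all 10 and negative cells 9 of them called higher. The 2 longer runs of gains lay on chromosome Z and differed between HH25 libraries.

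On chromosome Z, a run of 19 gains from 27307563 to 27358919 had sums of 53.8, 69.3 and 68.2 CPM at HH18 and 308.5, 344.0 and 61.1 CPM at HH25. A run of 12 from 27238175 to 27268771 had 247.5, 239.3 and 287.8 CPM at HH18 and 1029.8, 1110.8 and 237.6 CPM at HH25. HH25 replicate 3 lay within the HH18 range in the first run and below it in the second, while replicates 1 and 2 were far above them. Without HH25 replicate 1, 2 or 3, 12, 9 and 19 of the 19 were called, and 3, 2 and 12 of the 12.

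The stretch around these runs, from 27142852 to 27394234, was chosen after its values were seen. It spans 251.4 kb with 81 tested intervals, of which 61 were gains and 0 losses. Its summed level was 614.2, 625.8 and 709.1 CPM in HH18 and 2682.2, 3049.8 and 594.3 CPM in HH25 double-positive libraries. Replicate 3 was the lowest HH25 library at 80 of the 81 intervals, and its sum lay below every HH18 library. Without it 75 intervals were gains, without replicate 1 29 and without replicate 2 17. Sums were 1506.8 to 1852.2 CPM in HH25 E2-only and 1536.8 to 2515.1 CPM in HH25 negative libraries, and no interval had a called interaction with a more positive change in double-positive cells.

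**Figure D5:**
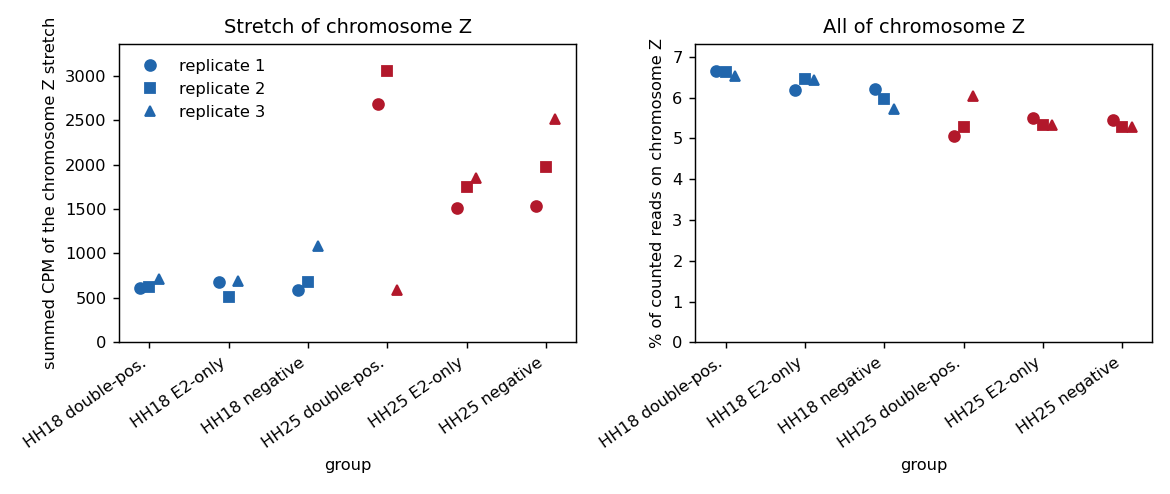
Summed CPM of the chromosome Z stretch and percent of reads on chromosome Z for each library of the 6 groups, with HH18 in blue, HH25 in red and marker shapes for the replicate. HH25 double-positive replicate 3 lies at 594.3 CPM, and replicates 1 and 2 at 2682.2 and 3049.8 CPM.

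The share of reads on the sex chromosomes differed in the same library. Chromosome Z held 5.07, 5.29 and 6.04% of reads in HH25 double-positive replicates 1, 2 and 3, and 6.52 to 6.65% at HH18. Chromosome W held 0.0758, 0.0767 and 0.0572% in the same HH25 replicates and 0.0446 to 0.0643% at HH18. Together with its contigs, W held 0.206, 0.227 and 0.0987% in these HH25 replicates and 0.0761 to 0.105% at HH18. In birds, males carry Z only and females carry Z and W. The sources used here do not give the sex of the embryos, and its part in these values was not tested. Without chromosomes Z and W and their contigs, an alternative added after the data were seen, 43617 intervals were called, 20414 higher and 23203 lower.

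Summed over windows of 1 Mb with at least 5 intervals, more windows were lower than higher at HH25. Of 1157 windows, 230 were higher at HH25 (19.9%) and 702 lower (60.7%) by the same edgeR test on window sums. With library totals alone, 376 were higher and 489 lower. The direction turned when windows with at least 1 interval were kept: of 6252 such windows, 2651 were higher and 1045 lower. Each contig forms a window of its own, however short, and the added windows were not split by class. On chromosomes 1 to 5, 481 of 611 windows were lower and 24 higher. On chromosomes 11 to 33, 50 of 186 were lower and 89 higher, and on contigs 6 of 128 were lower and 101 higher.

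The window of smallest p, on chromosome 1 from 153 to 154 Mb, went from 1793.8, 1935.3 and 1756.7 to 744.7, 717.5 and 798.4 CPM (log2 fold change -1.28, SE 0.07, edgeR adjusted p = 3e-14). It holds chr1:153949737-153949937, and without its most abundant interval its mean was 1154.3 CPM at HH18 and 707.1 CPM at HH25. Windows on chromosome Z followed, with 1036.2 ± 26.6 and 582.6 ± 29.7 CPM from 60 to 61 Mb and 1006.3 ± 26.8 and 488.9 ± 72 CPM from 48 to 49 Mb (SD, n = 3). The others were on chromosome 6 from 28 to 29 Mb (1401.5 ± 25.5 and 830.5 ± 53.9 CPM) and on chromosome 13 from 5 to 6 Mb (1059.2 ± 24.6 and 617.7 ± 22.8 CPM). All were lower in each HH25 library than in any HH18 library.

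Of the windows that rose, chromosome 1 from 194 to 195 Mb came first, from 665.5, 695.2 and 612.8 to 1000.4, 1028 and 1076 CPM (log2 fold change 0.65, SE 0.07, edgeR adjusted p = 1e-09). It contains the run of 10 gains. The first Mb of chromosome 19 went from 765.7 ± 38.3 to 1228.7 ± 54.6 CPM and that of chromosome 17 from 263.4 ± 1.62 to 452.6 ± 21.9 CPM (SD, n = 3). Chromosome 32 went from 218.8 ± 4.86 to 403.5 ± 5.92 CPM over 15 intervals and the linkage group LGE64 from 62.5 ± 9.91 to 155.5 ± 20.4 CPM over 14. Each HH25 library lay above every HH18 library in these windows.

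Many changes in double-positive cells were also called in the other populations, whose libraries are separate. Between the stages, 32104 intervals were called in negative cells (24%) and 76118 in E2-only cells (56.8%). Higher at HH25 were 12.1% of all tested intervals in negative and 27.6% in E2-only cells, and lower were 11.9% and 29.2%. Of the gains, 36.1% were also higher in negative cells (48.8% of the gains there) and 73.6% in E2-only cells (43.6%). Of the losses, 30.2% were also lower in negative cells (46.8%) and 57.5% in E2-only cells (36.2%). In all 3 populations 7424 gains (33.9% of gains) and 6342 losses (25.7% of losses) were called the same way. Opposite calls in E2-only cells were 1.24% of gains and 8.54% of losses. At HH18, negative libraries held 992341 to 3604040 reads and E2-only libraries 2586375 to 6976050. At HH25 they held 4152542 to 5559179 and 4012324 to 4559073. The part of depth in these overlaps was not tested.

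Differences between populations in the stage change were tested as interactions. Against negative cells 9544 intervals were called (7.12%), 4886 with a more positive (3.65%) and 4658 with a more negative change in double-positive cells (3.48%). Against E2-only cells 24360 were called (18.2%), 11996 more positive (8.95%) and 12364 more negative (9.23%). With library totals alone the split against negative cells became 7555 and 3207. The number called against negative cells rested in part on single HH18 libraries. Leaving out replicate 1 of the double-positive cells gave 6260, and leaving out replicate 1 or 3 of the negative cells gave 6346 or 5745. Without their replicate 2, the shallowest library with 992341 reads, 8537 were called.

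Of 21883 gains and 24670 losses, 664 (3.03%) and 1798 (7.29%) passed both interactions in their own direction. Among these, 558 gains and 1661 losses were called that way in neither other population and form the sets described here. Intervals called in the opposite direction in another population were kept in these sets. These losses stood out at HH18, with a median of 21.1 CPM in double-positive cells, 3.47 in E2-only cells and 3.11 in negative cells, and had 7.37, 5.85 and 4.8 CPM at HH25. The gains had 4.77 CPM in double-positive cells, 10.6 in E2-only cells and 12.7 in negative cells at HH18, and 14.6, 9.96 and 11.1 CPM at HH25. These levels are what chose the sets and are given as a description. Contigs made up 29.2% of these gains and 0.843% of these losses. They were 16.8% of all gains, 1.95% of all losses and 5.78% of all tested intervals.

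Intervals named for an interaction were also called in the double-positive stage comparison, lay above the median abundance and had no overlap between double-positive stages. Those where only another population changed were left out by this rule. Of the 4 intervals so named for the largest negative interactions against negative cells, 3 were open mainly in HH18 double-positive cells. At chr2:81544085-81544285 the double-positive libraries read 29.2, 30.6 and 21.2 CPM at HH18 and 1.13, 2.16 and 1.03 CPM at HH25 (log2 fold change -4.24, SE 0.40, edgeR adjusted p = 1.2e-15). E2-only cells had 3.65 ± 1.46 and 3.33 ± 1.08 CPM and negative cells 1.95 ± 0.222 and 2.35 ± 1.63 CPM at HH18 and HH25 (SD, n = 3). The interaction was -4.60, SE 0.72, edgeR adjusted p = 7.5e-06 against negative and -4.04, SE 0.62, edgeR adjusted p = 6.2e-07 against E2-only cells. Similarly, chrZ:62890331-62890531 read 29.5, 20.5 and 18.2 CPM at HH18 and 1.89, 2.88 and 1.8 CPM at HH25, with an interaction of -4.26, SE 0.84, edgeR adjusted p = 0.00034 against negative cells. At chr2:30526102-30526302 the libraries read 29.9, 17.9 and 18.6 CPM at HH18 and 4.52, 0.72 and 2.57 CPM at HH25, with an interaction of -4.26, SE 0.77, edgeR adjusted p = 9.8e-05. HH18 replicate 1 was the highest library at the last pair.

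The one of the 4 with the largest interaction in size, chr3:5282419-5282619, differed from these. Double-positive libraries read 6.89, 9.32 and 11.7 CPM at HH18 and 4.52, 6.12 and 4.11 CPM at HH25 (-0.93, SE 0.37, edgeR adjusted p = 0.045), while negative cells rose from 0.741 ± 0.238 to 9.8 ± 2.55 CPM (SD, n = 3). The interaction against negative cells was -4.75, SE 0.71, edgeR adjusted p = 2.2e-06. The stage call in double-positive cells was lost in 5 of the 6 fits without 1 double-positive library, all but the one without HH18 replicate 1.

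The 4 intervals named for the largest positive interactions against negative cells were nearly shut in HH18 double-positive cells and open in HH18 negative ones. At chr7:2924250-2924450 each HH18 double-positive library held 1 count, and those of HH25 read 5.28, 7.56 and 9.5 CPM, a ratio of 21.8 (95% counting interval 7.17 to 108.2). The limit given above for ratios from counts of 1 holds here too. Negative cells went from 8.08 ± 1.72 to 3.93 ± 1.48 CPM (SD, n = 3), and the interaction was called (edgeR adjusted p = 1.5e-06). At chr1_NT_456280v1_random:15064-15264 double-positive libraries read 0.985, 1.86 and 0.365 CPM at HH18 and 21.9, 22.3 and 13.6 CPM at HH25, and the interaction was 4.40, SE 0.62, edgeR adjusted p = 6.9e-07. Negative cells were at 9.23 ± 5.09 and 7.89 ± 2.41 CPM there (SD, n = 3). At chr28:2637620-2637820 the libraries read 0.657, 0.373 and 0.365 CPM at HH18 and 8.67, 4.68 and 7.96 CPM at HH25 (interaction 4.40, SE 0.77, edgeR adjusted p = 4.6e-05). At chrUn_NT_467787v1:307-507 they read 0.328, 0.373 and 2.19 CPM at HH18 and 14.7, 3.24 and 11.0 CPM at HH25 (interaction 4.23, SE 0.75, edgeR adjusted p = 0.00013), with the widest spread among HH25 libraries of these 4.

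The 4 intervals named for the largest positive interactions against E2-only cells were all called lower at HH25 in E2-only cells. Not all positive interactions were of this kind: at chr3_NT_459492v1_random:2807-3007, given above, both populations rose. At chr10:10168497-10168697 E2-only cells went from 46.9 ± 4.03 to 0.281 ± 0.119 CPM (SD, n = 3), and double-positive libraries read 4.27, 4.85 and 2.92 CPM at HH18 and 0.377, 1.8 and 0.77 CPM at HH25 (interaction 5.21, SE 1.10, edgeR adjusted p = 0.00025). At chr18:2482251-2482451 E2-only cells went from 50.1 ± 5.24 to 0.578 ± 0.483 CPM, and double-positive libraries read 2.3, 4.1 and 2.55 CPM at HH18 and 0.377, 2.16 and 0.257 CPM at HH25 (interaction 4.64, SE 1.12, edgeR adjusted p = 0.0015). Double-positive cells were low at both stages in both. The interaction at chr18:2482251-2482451 was lost without HH25 double-positive replicate 2. At chr22:1594467-1594667 E2-only cells went from 19.4 to 1.61 CPM, and double-positive libraries read 1.31, 0.745 and 2.19 CPM at HH18 and 4.15, 2.52 and 4.88 CPM at HH25 (interaction 5.02, SE 0.68, edgeR adjusted p = 1.7e-08). At chr17:1652334-1652534 E2-only cells went from 16.5 to 1.72 CPM, and double-positive libraries read 1.31, 1.86 and 1.82 CPM at HH18 and 5.66, 3.96 and 4.62 CPM at HH25 (interaction 4.77, SE 0.65, edgeR adjusted p = 2.1e-08). The populations moved in opposite directions at this pair. Of the 6 fits without 1 double-positive library, the stage call in double-positive cells was lost in 1 at chr10:10168497-10168697, 5 at chr18:2482251-2482451, 4 at chr22:1594467-1594667 and 2 at chr17:1652334-1652534.

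The 4 intervals named for the largest negative interactions against E2-only cells were all called higher at HH25 in E2-only cells. Here too others differed: chr8:2326152-2326352, given above, fell in both populations (E2-only log2 fold change -2.29). At chr20:5985012-5985212 E2-only cells went from 0.765 ± 0.404 to 6.21 ± 1.75 CPM (SD, n = 3), and double-positive libraries read 23.6, 21.2 and 15.0 CPM at HH18 and 4.15, 6.12 and 7.19 CPM at HH25 (interaction -4.86, SE 0.59, edgeR adjusted p = 1e-09). At chr13:16496129-16496329 E2-only cells went from 1.54 ± 0.588 to 17.4 ± 2.08 CPM, and double-positive libraries read 32.8, 33.9 and 30.6 CPM at HH18 and 18.5, 16.2 and 11.3 CPM at HH25 (interaction -4.59, SE 0.42, edgeR adjusted p = 1.8e-14). These intervals were open in double-positive cells at HH18, and the populations were near each other at HH25. At chr2:132921788-132921988 and chr1:123176166-123176366 each HH18 E2-only library held 1 count, and E2-only means at HH25 were 16.4 ± 4.56 and 17.5 ± 0.575 CPM (SD, n = 3). Double-positive libraries read 1.97, 1.86 and 2.19 CPM at HH18 and 4.52, 7.56 and 4.11 CPM at HH25 at the first. They read 11.8, 7.45 and 5.84 CPM at HH18 and 32.1, 26.7 and 15.1 CPM at HH25 at the second. Both populations rose there, and both interactions were called (edgeR adjusted p = 0.00017 and 7.3e-07). At chr2:132921788-132921988 the stage call in double-positive cells was lost in 3 of the 6 fits, those without HH18 replicate 1, HH18 replicate 2 or HH25 replicate 2.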

How the data were processed

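ATAC-seq was measured in sorted cells. Per the labels' protocols, tagmentation took 20 min, amplification 11 cycles, and reads were paired-end, 40 bp long. The authors deposited whole-number counts per interval, raw per the labels. Bowtie 1.0.0, HOMER 4.7, MACS2 and galGal5 are listed, without roles, per the submitters' processing notes; for interval choice, duplicates and any shift of read ends the sources used here give nothing. Intervals with 2 counts outnumbered those with 3 by factors of 1.22 to 1.34 in the HH18 double-positive libraries, against 0.962 to 0.987 at HH25. Intervals with 1 count also outnumbered those with 2 in HH18 double-positive replicates 1, 2 and 3 (7922 against 6749, 8834 against 7743, 8678 against 7704). The ratio alone thus does not show an excess of even counts, and counts above 3 were not compared. Such an excess arises where both mates of a pair are counted, and whether this was done here is not stated. In case it was, an alternative took the lowest value, 1, as 0 reads and each pair as 2 reads (counts lowered by 1 and halved). A further 9 columns of per-sample values match no label and were not used, so HH10 groups were not analysed here, and the fit covers 18 libraries.

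In R 4.3.3, edgeR 4.0.16 kept intervals by filterByExpr, scaled libraries by TMM and fitted 1 mean per group with a robust quasi-likelihood model. P-values were adjusted over all tested intervals, and SEs derived from the test statistic. Ratios of levels from summed counts have exact 95% intervals, which take a count of 1 as 1 read. PCR reads are not independent molecules, so intervals and floors cover counting error only. Totals of the 18 libraries were 992341 to 6976050 reads. Chi-square per degree of freedom between replicate pairs was 1.84 to 2.39, and replicates were kept apart. Counting both mates of a pair would raise this value. Sampling noise and differences between replicates therefore cannot be told apart by it. The procedure was tested on simulated data with 100 intervals changed 4-fold and 100 changed 2-fold. It called 54% and 11% of these, and 1 of its 66 calls was false. The simulation held far fewer changes than were called in the data, so these shares need not hold there. Alternatives included DESeq2 1.42.0.

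Named intervals are the 8 largest gains and losses, the 4 each way of smallest p and of largest CPM difference, 4 each way per interaction, the 4 most abundant not called, 5 windows each way and the longest runs. The intervals, lists and tests were chosen with earlier results of these data known. Planned gene lists, markers, motif and sequence steps need a galGal5 annotation and were not used here.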

Additional observations from a re-analysis of the deposited data

Results flagged for a closer look

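Double-positive and negative cells differed in their change from HH18 to HH25 at 9544 intervals, and double-positive and E2-only cells at 24360, by the interaction test in edgeR at an adjusted p below 0.05. Values below are differences of log2 changes, double-positive minus the other population.

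Against negative cells, the largest positive differences among the named intervals were 5.29 at chr7:2924250-2924450, 4.40 at chr1_NT_456280v1_random:15064-15264, 4.40 at chr28:2637620-2637820 and 4.23 at chrUn_NT_467787v1:307-507. The largest negative ones were -4.75 at chr3:5282419-5282619, -4.60 at chr2:81544085-81544285, -4.26 at chrZ:62890331-62890531 and -4.26 at chr2:30526102-30526302. Against E2-only cells they were 5.21 at chr10:10168497-10168697, 5.02 at chr22:1594467-1594667, 4.77 at chr17:1652334-1652534 and 4.64 at chr18:2482251-2482451, and -4.86 at chr20:5985012-5985212, -4.59 at chr13:16496129-16496329, -4.58 at chr2:132921788-132921988 and -4.56 at chr1:123176166-123176366. At chr7:2924250-2924450, chr2:132921788-132921988 and chr1:123176166-123176366 1 group held a count of 1 in every library, so the fitted value depends on the prior count and is no bound.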

How the results depend on the processing

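Leaving out each double-positive library in turn gave 37414 to 40950 called intervals for the stage comparison, and DESeq2 gave 41021. Counts moved by over 1.5 times when libraries were thinned to the lowest total, which leaves fewer reads (19560 called, 9363 higher, 10197 lower), and when a 2-fold change was the null (12025, 5862 and 6163). Thinning also left fewer tested intervals, 55266 against 134020, here and in the interactions, so its counts and those of the main fit have unlike totals. At an adjusted p below 0.01, 14298 were higher. More intervals were higher than lower also with no filter (23722 and 22753), the compared groups only (19748 and 18618 of 89432 tested) and without contigs (21420 and 20605). The same held with a filter of at least 10 counts in at least 3 libraries (23739 and 22542). That filter kept 135727 intervals, more than the 134020 of the main fit. Against negative cells, an adjusted p below 0.01 gave 3603 (1896 more positive, 1707 more negative) and thinning 2116 (1314 and 802). Library totals alone gave 7555 more positive, and 3091 were more negative with counts lowered by 1 and halved and 2985 without contigs; the cause was not tested. The share of more positive calls was 61.5% with no filter, 62.1% with thinning and 70.2% with totals alone, against 51.2%. Leaving out 1 library gave 5745 to 9431 called, 3234 to 6048 more positive and 2297 to 3758 more negative. The total moved by over 1.5 times without HH18 double-positive replicate 1 (6260), HH18 negative replicate 1 (6346) or HH18 negative replicate 3 (5745), and the more negative calls also without HH25 negative replicate 1 (2762). Against E2-only cells, an adjusted p below 0.01 gave 12878 (5981 and 6897) and thinning 5957 (2613 and 3344).

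Windows of 250 kb gave 2929 called (624 higher, 2305 lower), windows with at least 1 interval 3696 (2651 higher, 1045 lower, so the direction turned), and library totals alone 376 higher. Short contigs each count as a window here. Of the named intervals' stage values, 25 lost their call without 1 library and 40 under other alternatives, of 300 and 680 values. The uncalled interval chr9:12721454-12721654 changed sign to 0.14 with totals alone, 0.01 with no filter and 0.01 with the filter of at least 10 counts. It was 0.09 with the compared groups only, 0.08 with thinning, 0.09 with halved counts and 0.07 without contigs. When 1 library was left out it ranged from -0.03 to 0.06. It was uncalled in each of these.

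With the replicate number as a block, 46742 intervals were called between stages, 9694 and 24417 in the interactions against negative and E2-only cells, and 940 windows. Deviations of same-numbered libraries correlated at -0.0379 to 0.0257, not every library correlated best with its own number, and the labels do not say that a number marks a shared batch, so the numbers were not taken as pairs. Depth limits the fold changes of the 2913 gains with at most 3 counts in each HH18 library and of the 510 losses with at most 3 in each HH25 library.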
